A study of Mus musculus with 8 samples.

Results

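The genes described here code for general factors of RNA polymerase II transcription and for relatives of such factors that are known from male germ cells. They were chosen by symbol and number 8, namely Tbp, Tbpl1, Taf7, Taf7l, Taf4b, Gtf2b, Crem and Sox30. Of these, 7 had a row among the 18097 genes of the normalized expression table, and Taf4b was not analysed here. RNA from whole testes of male mice was measured on single-colour Illumina BeadChips, where labelled RNA binds to gene-specific probes on beads and the brightness of the beads is the signal. Each array held the testis RNA of 1 animal at 17.5 dpp (days post partum), and there were 4 animals per genotype. XEOSry males were XO, with transgenes that supply Sry for testis development and Eif2s3y for spermatogonial proliferation, and had no Zfy gene. XEZ2OSry males carried an X-linked Zfy2 transgene in addition and were otherwise of the same constitution, on an MF1 background. Zfy2 codes for a zinc finger protein of the Y chromosome. In both genotypes the single X chromosome had no pairing partner, and the testes, taken before the meiotic divisions, held germ cells up to the late pachytene and early diplotene stages.

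RNA polymerase II is brought to promoters by general factors, of which TFIID, made of the TATA-binding protein TBP and its associated factors (TAFs), binds first and TFIIB links it to the polymerase. Male germ cells are known to accumulate TBP in spermatids and to use substitutes for several of these parts, among them TBPL1 (TLF or TRF2) for TBP, TAF7L for TAF7 and TAF4B for TAF4. Genes of the X chromosome, Taf7l among them, are known to be silenced in pachytene spermatocytes, from which autosomal genes are spared. CREM and SOX30 are not general factors but sequence-specific activators of genes used late in meiosis and in spermatids, and both are needed for spermatid development in mice.

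The signal is given as a log2 value, which the authors had quantile normalized, so that a difference of 1 is a doubling. Differences are XEOSry minus XEZ2OSry, from a limma fit of the 8324 genes that had a detection p-value under 0.01 on at least 4 of the 8 arrays, with Benjamini-Hochberg adjustment over all of them. Between 8063 and 8434 genes were detected on an array. Zfy2 and Sry were detected on no array, with detection p-values of at least 0.539 and 0.336, so that their probes could not check the labels, and Eif2s3y was detected on all 8. In pachytene markers, XEOSry replicate 4 was the highest of its genotype and above XEZ2OSry replicate 4, which was the lowest of its own. The mean of 19 autosomal pachytene marker genes, on the log2 scale, was 10.32, 9.30, 9.42 and 10.64 in XEOSry replicates 1 to 4, against 11.14, 11.51, 11.18 and 10.52 in XEZ2OSry replicates 1 to 4. Differences that pass the threshold only without these 2 animals are also given without them. That setting was chosen after the data were seen and leaves out the testis of each genotype that lay nearest to the other genotype. In it 19.2% of all genes tested passed the threshold. Passing in it is therefore a description and no support for a difference.

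Tbp, Taf7l and Crem passed the detection filter. Tbp and Crem had lower mean signals in XEOSry than in XEZ2OSry testes and Taf7l a higher one, by 1.44- to 1.5-fold, but the genotypes overlapped in all of them and none passed the threshold at an adjusted p of 0.05. Over all genes tested, 5 passed it, or 0.0601%. In whole testis RNA, fewer cells of a type and less RNA per cell cannot be told apart. Tbpl1, Taf7, Gtf2b and Sox30 were at or near the background of the arrays. Of the germ cell substitutes named above, Taf7l was thus well above background and Tbpl1 was not, and Taf4b was not analysed.

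The 300 bases around the annotated start of 3 genes are shown because the comparisons of general factors turn on them. Tbp and Taf7l2 (named 4933416C03Rik on the array, an autosomal relative of Taf7l) had lower means in XEOSry and X-linked Taf7l a higher mean. The windows are from RefSeq (GRCm38.p6), run from 250 bases before the start to 50 after it and are written along the gene's strand. The start is that of RefSeq's promoter window, which in Taf7l lies slightly inside the gene interval given with its signals. Capitals mark matches, on either strand, to the TATA box TATAAA or to TGACG, the core of the cyclic AMP response element that CREM binds. Tbp lies at chr17:15499638-15499937 on the plus strand, Taf7l2 at chr10:116113868-116114167 on the minus strand and Taf7l at chrX:134476441-134476740 on the minus strand.
Tbp: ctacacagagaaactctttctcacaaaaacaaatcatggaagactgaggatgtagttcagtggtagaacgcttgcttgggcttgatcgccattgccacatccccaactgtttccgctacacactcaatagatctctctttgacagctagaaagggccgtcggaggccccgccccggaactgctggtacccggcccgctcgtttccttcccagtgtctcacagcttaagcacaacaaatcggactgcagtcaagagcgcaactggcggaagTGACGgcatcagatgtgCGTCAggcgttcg
Taf7l2: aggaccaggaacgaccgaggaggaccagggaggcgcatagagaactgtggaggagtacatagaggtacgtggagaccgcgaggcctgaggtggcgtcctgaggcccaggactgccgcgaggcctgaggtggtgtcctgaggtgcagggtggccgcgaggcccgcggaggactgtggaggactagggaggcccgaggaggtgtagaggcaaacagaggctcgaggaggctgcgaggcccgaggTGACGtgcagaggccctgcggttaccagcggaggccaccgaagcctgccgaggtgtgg
Taf7l: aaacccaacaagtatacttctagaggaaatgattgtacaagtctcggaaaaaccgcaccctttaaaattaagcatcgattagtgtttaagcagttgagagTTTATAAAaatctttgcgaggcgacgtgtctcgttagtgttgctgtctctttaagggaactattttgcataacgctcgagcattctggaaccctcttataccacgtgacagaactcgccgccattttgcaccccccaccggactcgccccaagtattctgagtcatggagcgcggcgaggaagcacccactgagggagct

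The Tbp window holds TGACG with its first base at position 21 after the start and its reverse complement CGTCA at position 38. In Taf7l2, TGACG begins at position -8. The Taf7l window holds TATAAA at position -148, which overlaps its reverse complement TTTATA at position -150, and no TGACG. Of all 32851 RefSeq windows of this length, 20.8% hold TGACG, 13.6% hold TATAAA and 1.79% hold the full element TGACGTCA, which none of these 3 windows has. Windows of Gtf2b, Tbpl1 and Sox30 were also read. That of Gtf2b, whose difference was -0.04, holds CGTCA at position -125. The windows of Tbpl1, whose difference was -0.28, and of Sox30, at -0.03, hold no match. Both of these windows lie wholly inside the gene intervals, so that the bases around the outer start of each interval were not read. These matches are descriptions of the letters, and binding was not measured. A relation of the matches to the differences was not tested.

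TBP is the subunit of TFIID that binds promoter DNA and also serves the other nuclear RNA polymerases. The Tbp gene lies at chr17:15499888-15517427. Its log2 signals were 9.55, 9.37, 8.92 and 9.64 in XEOSry replicates 1 to 4, against 10.09, 10.26, 9.97 and 9.51 in XEZ2OSry replicates 1 to 4. The first 3 XEZ2OSry testes were above every XEOSry testis, and the fourth was below XEOSry replicates 1 and 4. Means were 9.37 ± 0.322 in XEOSry and 9.96 ± 0.318 in XEZ2OSry (SD, n = 4 each). The difference of -0.59 (SE 0.197, 95% interval -1.03 to -0.14), a 1.5-fold lower mean signal in XEOSry, had an adjusted p of 0.133 from limma. At an unadjusted p of 0.0153, Tbp is among the 997 genes, or 12% of those tested, that lay under 0.05 with a lower mean in XEOSry, and 550 genes had a more negative difference. Without XEZ2OSry replicate 4 the difference was -0.73 (adjusted p = 0.0490 from limma, with 5.9% of all genes past the threshold), and without replicate 4 of both genotypes it was -0.83 (adjusted p = 0.0225), with 19.2% past it.

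TBPL1 resembles the DNA-binding part of TBP and is needed in mouse spermatids. The log2 signals of Tbpl1 (chr10:22703877-22732666) were 6.43, 6.35, 6.23 and 6.50 in XEOSry replicates 1 to 4, against 6.75, 6.66, 6.66 and 6.53 in XEZ2OSry replicates 1 to 4. No XEOSry testis reached the lowest XEZ2OSry testis, as held for 572 of all 18097 genes, or 3.16%. Tbpl1 was detected on no XEOSry array and on 1 XEZ2OSry array, that of replicate 1, with detection p-values of 0.00376 to 0.435 over the 8 arrays. Means were 6.38 ± 0.116 in XEOSry and 6.65 ± 0.0921 in XEZ2OSry (SD, n = 4 each). In the fit without a filter the difference was -0.28 (SE 0.0746, 95% interval -0.45 to -0.10, adjusted p = 0.175 from limma). No fold is given, since Tbpl1 was not above background in XEOSry and in 3 of the 4 XEZ2OSry testes. Without replicate 4 of both genotypes, the difference in the fit without a filter was -0.36 (adjusted p = 0.0391 from limma). The share of all genes past the threshold in that fit is not given here, and passing in it is no support for a difference.

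TAF7L is a testis form of the TFIID subunit TAF7, which contacts the largest subunit of the complex. The X-linked gene Taf7l (chrX:134460116-134476505) had log2 signals of 12.17, 12.75, 12.49 and 11.87 in XEOSry replicates 1 to 4, against 11.80, 11.29, 11.64 and 12.20 in XEZ2OSry replicates 1 to 4. XEOSry replicates 2 and 3 were above all XEZ2OSry testes, whereas replicate 4 of XEZ2OSry was above XEOSry replicates 1 and 4. Means were 12.32 ± 0.384 in XEOSry and 11.73 ± 0.377 in XEZ2OSry (SD, n = 4 each). The difference of 0.59 (SE 0.229, 95% interval 0.07 to 1.11), a 1.5-fold higher mean signal, had an adjusted p of 0.166 from limma. At an unadjusted p of 0.0300, Taf7l is among the 1071 genes, or 12.9% of those tested, that lay under 0.05 with a higher mean in XEOSry. X-linked genes had a median difference of 0.36 over 285 genes that passed the filter, and 42 of them had a larger difference than Taf7l. Without replicate 4 of both genotypes, the Taf7l difference was 0.89 (adjusted p = 0.0221 from limma), with 19.2% of all genes past the threshold.

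Taf7, the widely expressed form, was detected on no array. Its log2 signals were 6.63, 6.43, 6.31 and 6.23 in XEOSry replicates 1 to 4, against 6.47, 6.43, 6.48 and 6.34 in XEZ2OSry replicates 1 to 4. All 4 XEZ2OSry values lie within the range of the XEOSry values. The difference in the fit without a filter was -0.03 (95% interval -0.23 to 0.17, adjusted p = 0.912 from limma). A difference between the genotypes was not detectable at this signal.

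4933416C03Rik, which RefSeq names Taf7l2, is an autosomal gene on chromosome 10 and was taken from the list of further paralogues. Its log2 signals were 10.50, 9.87, 9.70 and 10.84 in XEOSry replicates 1 to 4, against 11.29, 11.71, 11.13 and 10.85 in XEZ2OSry replicates 1 to 4. Every XEOSry testis was below every XEZ2OSry testis, though replicate 4 of the genotypes differed by only 0.01. Such separation held for 572 of all 18097 genes, or 3.16%, a set that includes genes below the detection filter. The share among the 8324 genes tested is not given here. Of those, 12% lay under an unadjusted p of 0.05 from limma with a lower mean in XEOSry. Means were 10.23 ± 0.534 in XEOSry and 11.25 ± 0.361 in XEZ2OSry (SD, n = 4 each). The difference was -1.02 (SE 0.271), a 2.03-fold lower mean signal in XEOSry, with an adjusted p of 0.117 from limma. It was -1.36 without replicate 4 of both genotypes (adjusted p = 0.0171 from limma), with 19.2% of all genes past the threshold. Taf5l, a relative of Taf5 that serves a histone acetyltransferase complex, was the other gene of that list past the filter, with a difference of 0.20 (adjusted p = 0.274 from limma).

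The mean differences of Taf7l and 4933416C03Rik had opposite signs, though neither passed the threshold. The log2 signal of Taf7l minus that of 4933416C03Rik within an array was 1.67, 2.88, 2.79 and 1.03 in XEOSry replicates 1 to 4, against 0.51, -0.43, 0.51 and 1.35 in XEZ2OSry replicates 1 to 4. XEZ2OSry replicate 4 exceeded XEOSry replicate 4, and the other XEOSry testes were above all XEZ2OSry testes. The mean was 2.09 ± 0.899 in XEOSry and 0.49 ± 0.725 in XEZ2OSry (SD, n = 4 each). This pair was chosen after its values were seen and was not tested, and the size of the ratio within an array has no meaning across probes. The pairs listed at the outset, such as Tbpl1 with Tbp and Taf7l with Taf7, each had a member below the detection filter or without a row and were not tested.

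TFIIB, the product of Gtf2b, joins TFIID to the polymerase in every cell. Gtf2b was detected on no array, with log2 signals of 6.58, 6.53, 6.35 and 6.42 in XEOSry replicates 1 to 4, against 6.43, 6.41, 6.62 and 6.57 in XEZ2OSry replicates 1 to 4. The genotypes overlapped, and the difference was -0.04 (95% interval -0.21 to 0.13, adjusted p = 0.855 from limma without a filter). As TFIIB is used in all cells, a signal at background does not show that the transcript was absent.

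CREM is a cyclic AMP responsive factor whose activator form is made in late spermatocytes and spermatids. Crem (chr18:3266354-3337773) had log2 signals of 7.36, 7.03, 6.86 and 7.33 in XEOSry replicates 1 to 4, against 7.84, 7.95, 7.54 and 7.35 in XEZ2OSry replicates 1 to 4. The genotypes overlapped only through XEZ2OSry replicate 4, which was just below XEOSry replicate 1. Means were 7.15 ± 0.241 in XEOSry and 7.67 ± 0.273 in XEZ2OSry (SD, n = 4 each). The difference of -0.52 (SE 0.164, 95% interval -0.89 to -0.15), a 1.44-fold lower mean signal in XEOSry, had an adjusted p of 0.128 from limma, and 626 genes had a more negative difference. Detection p-values lay between 0.000539 and 0.00659, so that Crem was above background on every array. Its signals were all below the median of the genes tested, which was 8.35 to 8.37 on the arrays. The gene makes activator and repressor forms, which the gene-level signal does not separate. Without replicate 4 of both genotypes the difference was -0.69 (adjusted p = 0.0300 from limma), with 19.2% of all genes past the threshold.

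SOX30 activates genes of the pachytene to spermatid transition. Sox30 was detected on no array, with log2 signals of 6.24, 6.25, 6.11 and 6.25 in XEOSry replicates 1 to 4, against 6.26, 6.4, 6.15 and 6.15 in XEZ2OSry replicates 1 to 4. The difference was -0.03 (95% interval -0.19 to 0.13, adjusted p = 0.891 from limma without a filter), and the detection p-values of 0.107 to 0.902 make Sox30 the gene farthest below the detection limit among the 7 measured.

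**Figure D1:**
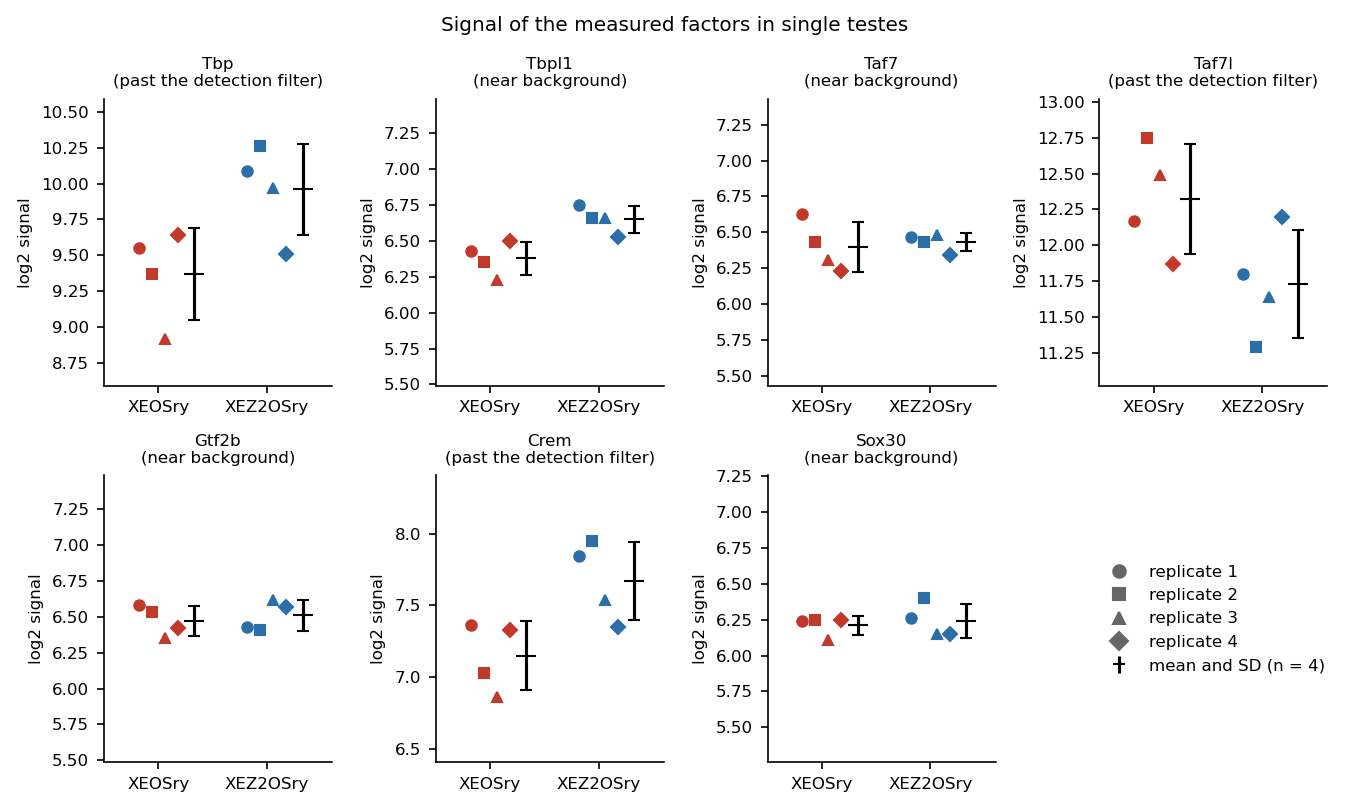
The log2 signal of each measured gene is plotted for single testes of XEOSry (red) and XEZ2OSry (blue) males, with symbols for replicates 1 to 4 and the mean ± SD (n = 4) in black; vertical scales differ between genes. Tbp and Crem are lower and Taf7l is higher in most XEOSry testes, XEOSry replicate 4 lies above XEZ2OSry replicate 4 in Tbp and below it in Taf7l, and Taf7, Gtf2b and Sox30 stay between 6.11 and 6.63.

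The remaining general factors were compared from lists of their subunits. Of 13 TFIID subunits listed beyond those above, 11 had a row and 8 passed the detection filter. Their means were higher in XEOSry for 4 and lower for 4, 0 passed the threshold in limma (under an unadjusted p of 0.05 there were 1 higher and 1 lower of 8, against 12.9% and 12% of all genes), and the median difference was 0.07, as over all genes. Taf9b, an X-linked histone-fold subunit, had the largest positive difference, with log2 signals of 11.24, 12.01, 11.51 and 11.08 in XEOSry replicates 1 to 4, against 10.88, 10.49, 10.65 and 11.21 in XEZ2OSry replicates 1 to 4. Again XEZ2OSry replicate 4 reached into the XEOSry range. The Taf9b difference was 0.65 (SE 0.220, adjusted p = 0.135 from limma), and 29 of the 285 X-linked genes had a larger one. Taf6, the histone-fold partner of TAF9 and TAF9B in TFIID, had the most negative difference, at -0.46 (SE 0.178, adjusted p = 0.164 from limma), with 7.44, 7.50, 7.74 and 8.26 in XEOSry replicates 1 to 4, against 8.03, 8.15, 8.21 and 8.37 in XEZ2OSry replicates 1 to 4. Only XEOSry replicate 4 was within the range of the XEZ2OSry testes. Taf13, which pairs with TAF11, differed by 0.26 and Taf12, which pairs with TAF4, by -0.03. Taf9, the autosomal relative of Taf9b, was named after its values were seen, since it failed the filter with 1 array detected although its log2 signals were 9.4, 9.06, 8.78 and 9.11 in XEOSry replicates 1 to 4, against 9.6, 9.8, 9.61 and 9.4 in XEZ2OSry replicates 1 to 4. Its detection p-values were 0.00982 to 0.0368, and in the fit without a filter the difference was -0.51 (SE 0.134, adjusted p = 0.171 from limma).

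Among 19 genes for TFIIA, TFIIE, TFIIF, TFIIH and the regulators of TBP, 16 had a row and 11 passed the filter. Means were higher in XEOSry for 7 and lower for 4, with a median of 0.01 and 0 past the threshold in limma (under an unadjusted p of 0.05 there were 1 higher and 1 lower of 11, against the same 12.9% and 12%). Gtf2e1, the large subunit of TFIIE, had 11.02, 11, 11.13 and 11.34 in XEOSry replicates 1 to 4, against 10.83, 10.73, 10.75 and 10.93 in XEZ2OSry replicates 1 to 4. The genotypes of Gtf2e1 did not overlap, and the difference was 0.31 (SE 0.104, adjusted p = 0.133 from limma). The share of all genes that were separated in this direction is not given here. Gtf2e2, the small subunit, differed by -0.15 and its genotypes overlapped. In TFIIH, the helicase gene Ercc3 differed by 0.19 and Gtf2h1 by -0.31 (adjusted p = 0.187 from limma). Over both lists, 19 genes had a median of 0.01, and the differences of the 18 autosomal ones lay between -0.46 and 0.31. Tbp, at -0.59, lay outside that range, which was not tested.

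**Figure D2:**
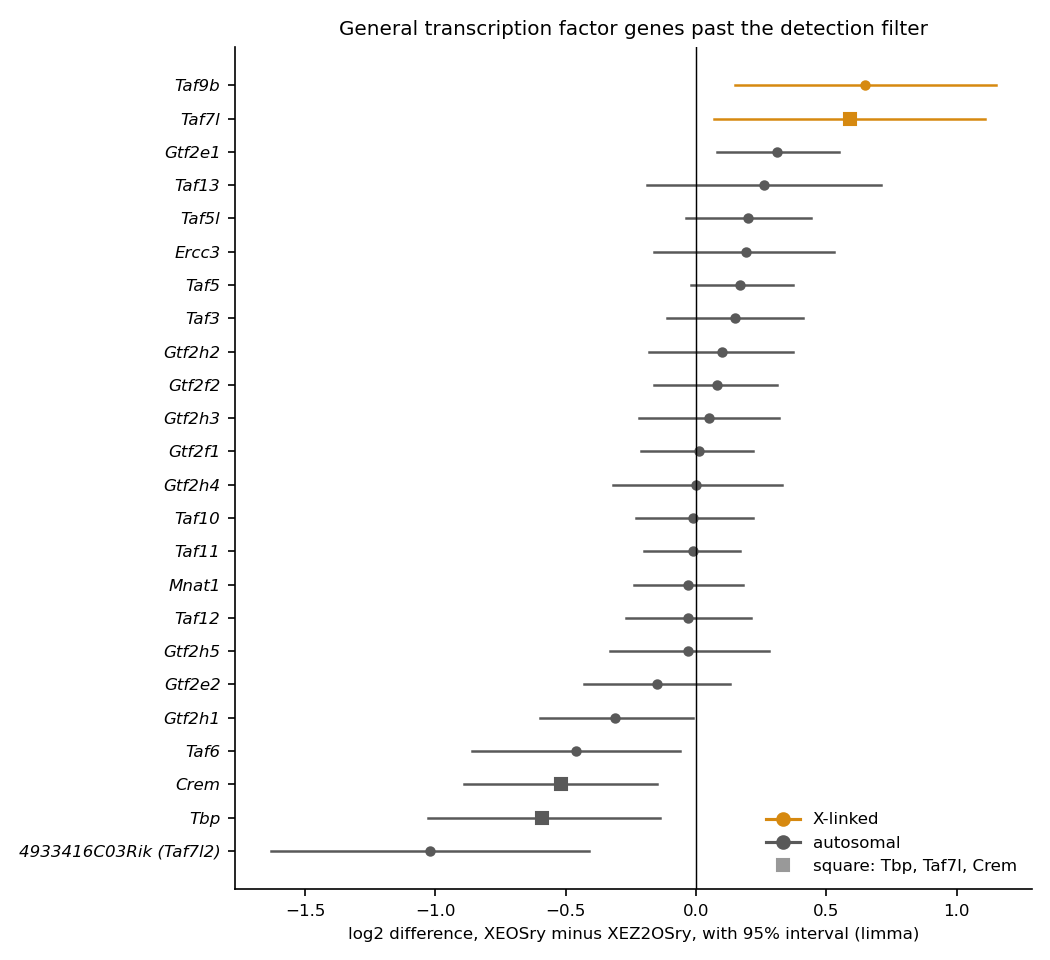
Points show the log2 difference, XEOSry minus XEZ2OSry, with its 95% interval from limma for each general factor gene, paralogue and Crem past the detection filter; squares mark Tbp, Taf7l and Crem, and orange marks X-linked genes. Both X-linked genes, Taf9b at 0.65 and Taf7l at 0.59, lie at the top, and 4933416C03Rik at -1.02, Tbp at -0.59 and Crem at -0.52 lie at the bottom.

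Factors that act with CREM and genes known to depend on it were read from their own lists. Of 10 cyclic AMP response factors and CREM partners, 8 had a row and 3 passed the filter, with 0 past the threshold in limma (under an unadjusted p of 0.05 there were 2 higher and 0 lower of 3, against 12.9% and 12% of all genes). Crtc3, a coactivator of this family, had a difference of 0.42 (adjusted p = 0.155 from limma) and Ep300, a histone acetyltransferase, one of 0.27 (adjusted p = 0.146), so that both means were higher in XEOSry where that of Crem was lower. Creb1, a relative of Crem used in most cells, was detected on no array. Of 10 genes with CREM-dependent expression in haploid cells, 9 had a row and only Pgk2 and Tnp1 passed the filter. Pgk2, an autosomal copy of the X-linked glycolytic gene Pgk1 that is used in spermatocytes and spermatids, had log2 signals of 8.56, 6.78, 6.59 and 8.34 in XEOSry replicates 1 to 4, against 9.96, 10.78, 9.65 and 8.28 in XEZ2OSry replicates 1 to 4. Pgk2 was detected on 3 XEOSry and 4 XEZ2OSry arrays, and XEOSry replicates 2 and 3 were near background. The spread within each genotype was about 1, with means of 7.57 ± 1.02 in XEOSry and 9.67 ± 1.04 in XEZ2OSry (SD, n = 4 each), and the difference of -2.10 had an adjusted p of 0.121 from limma. It was -2.56 without XEZ2OSry replicate 4 (adjusted p = 0.0413 from limma), where 5.9% of all genes passed the threshold. Without replicate 4 of both genotypes it was -2.82 (adjusted p = 0.0176 from limma), where 19.2% passed. Tnp1, a transition protein gene of spermatids, differed by -0.10 (adjusted p = 0.607 from limma). It was detected on 2 arrays of each genotype, with log2 signals of 6.38 to 6.95, near background.

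Other transcription regulators of meiotic germ cells gave 11 genes past the filter among 17 with a row and 21 listed, 4 with higher and 7 with lower means in XEOSry, a median of -0.05 and 0 past the threshold in limma (under an unadjusted p of 0.05 there were 0 higher and 3 lower of 11, against 12.9% and 12% of all genes). With detection required on all 8 arrays the median was -0.21. Rfx2, a factor for cilium and spermatid genes, averaged 9.95 ± 0.750 in XEOSry and 11.13 ± 0.385 in XEZ2OSry (SD, n = 4 each), a difference of -1.18 (adjusted p = 0.121 from limma) that was -1.52 without XEOSry replicate 4 (adjusted p = 0.0443). Ybx2, which binds RNA and promoters in germ cells, averaged 9.92 ± 0.828 in XEOSry and 10.99 ± 0.366 in XEZ2OSry (SD, n = 4 each), a difference of -1.08 (adjusted p = 0.142 from limma) that was -1.39 without XEOSry replicate 4 (adjusted p = 0.0496). Without that animal 4.58% of all genes passed the threshold. With each animal left out in turn, adjusted p-values from limma ran from 0.0443 to 0.307 for Rfx2 and from 0.0496 to 0.333 for Ybx2. Stra8 and Sohlh1, which act before or at meiotic entry, had positive differences of 0.33 and 0.44 (adjusted p = 0.386 and 0.305).

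Markers of cell types were summarised per array, and 0 single marker genes in any of the 7 lists passed the threshold in limma. The pachytene marker mean was 9.92 ± 0.661 in XEOSry and 11.09 ± 0.411 in XEZ2OSry (SD, n = 4 each), with lower means in XEOSry for 16 of the 19 genes that passed the filter out of 29 listed. Summed linear pachytene signals ran from 28600 to 80600 in XEOSry and from 70200 to 114000 in XEZ2OSry, and Sycp3, Mael, Nek2, Hist1h1t and Calm4 were detected on no array. The mean of 10 spermatogonial markers differed by 0.15 and that of 9 Sertoli cell markers by 0.38, with higher means in XEOSry for all 9. Leydig, peritubular with endothelial, and macrophage with blood markers differed by -0.07, 0.20 and 0.11. Among round spermatid markers, 6 of the 7 with a row were detected on no array. The testes were taken before the meiotic divisions, so that the haploid cells in which Crem and Sox30 are known to act were not yet due in them.

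XEOSry replicates 2 and 3, the testes lowest in pachytene markers, had the lowest Tbp, Crem and 4933416C03Rik signals and the highest Taf7l signals of the 8 testes. XEZ2OSry replicate 2, the highest in pachytene markers, had the highest Tbp, Crem and 4933416C03Rik signals and the lowest Taf7l signal. What part the share of pachytene cells has in the differences of these genes was not tested.

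**Figure D3:**
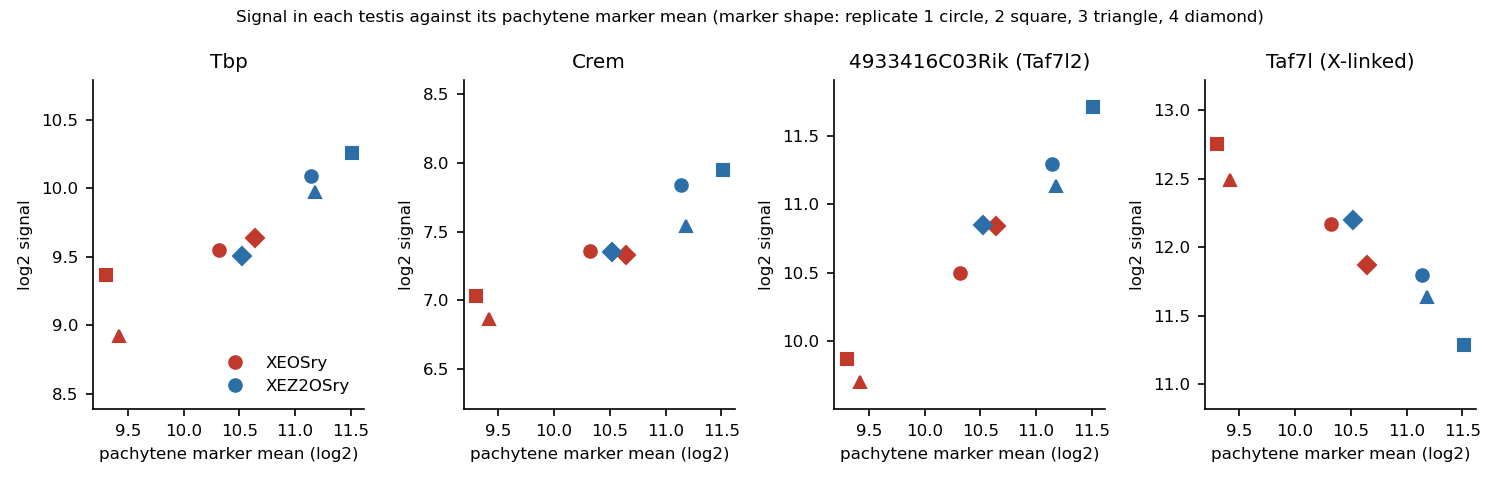
Each point is 1 testis, with the mean log2 signal of 19 pachytene markers on the horizontal axis and the log2 signal of Tbp, Crem, 4933416C03Rik (Taf7l2) or Taf7l on the vertical axis; red is XEOSry, blue is XEZ2OSry, and shapes mark replicates. Replicate 4 of the genotypes lies side by side in the middle, at 10.64 in XEOSry and 10.52 in XEZ2OSry, and Taf7l runs opposite to the other genes.

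The genes whose signals ran most like those of Tbp, Crem and Taf7l over the 8 arrays were found by Pearson's r of log2 signals, as a description over arrays that share genotype and stage makeup. For Tbp they were Fsip1 (r = 0.993), Tcp1 (r = 0.987), which lies on the same chromosome, and Spo11 (r = 0.985), the gene for the enzyme that makes meiotic double-strand breaks and itself one of the pachytene markers. For Crem they were 4933411K20Rik (r = 0.998), AK129341 (r = 0.996) and Stx17 (r = 0.995). For Taf7l they were Swap70 (r = 0.996), Tnni3 (r = 0.996) and Hist2h2ac (r = 0.993), all autosomal, with differences of 0.24, 0.35 and 0.32.

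Leaving out animals in turn moved the 3 differences without changing their sign. The Tbp difference ran from -0.73 to -0.44, that of Crem from -0.63 to -0.43 and that of Taf7l from 0.44 to 0.74, with adjusted p-values from limma of 0.0490 to 0.331, 0.0522 to 0.321 and 0.0635 to 0.386. The count of all genes past the threshold was 375 without XEOSry replicate 4 and 482 without XEZ2OSry replicate 4, against 5 with all arrays. Without replicate 4 of both genotypes it was 1529 of 7983, or 19.2%, and Tbp, Crem and Taf7l passed, as did 7 list genes. These were Taf6 at -0.57, Taf9b at 0.91, 4933416C03Rik at -1.36, Pgk2 at -2.82, Tcfl5 at -1.13, Rfx2 at -1.70 and Ybx2 at -1.56. Most of the list genes tested in that setting did not pass. This setting was chosen after the data were seen, and leaves out the testes of each genotype that lay nearest to the other genotype.

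**Figure D4:**
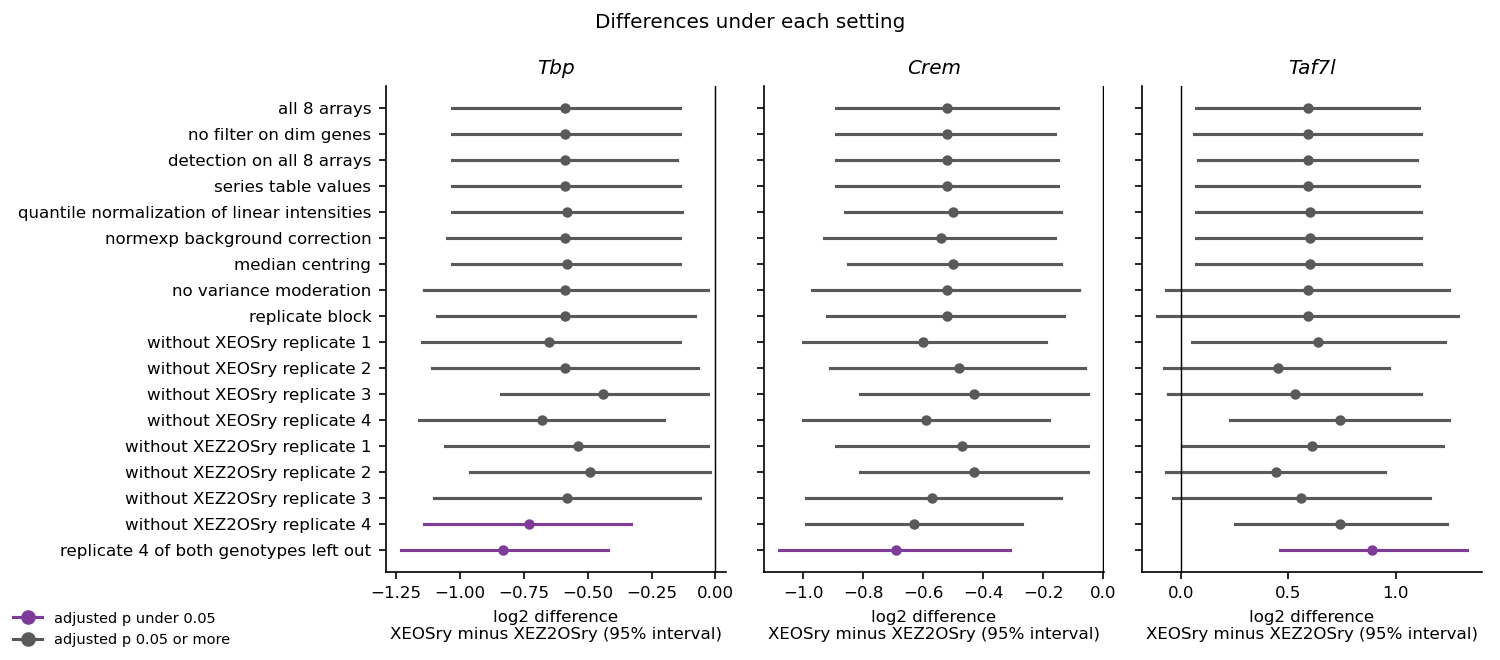
The log2 difference, XEOSry minus XEZ2OSry, of Tbp, Crem and Taf7l is shown with its 95% interval under each way of processing or each animal left out, in purple where the adjusted p is under 0.05. The differences keep their sign under all settings shown, and the purple ones are those without XEZ2OSry replicate 4 (Tbp) and without replicate 4 of both genotypes (all 3 genes).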

How the data were processed

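The 8 arrays were mapped to genotype and replicate from the sample labels, which give 4 animals per genotype where the Methods give 3. Labels number animals within a genotype, and the animal identifiers differ between genotypes, so that a cohort and the genotype cannot be told apart. RNA was labelled as biotinylated cRNA. Quantile normalization was done by the authors, and their deposited log2 values per gene were used unchanged. The processing notes name GenomeStudio 2011.1 and the Methods BeadStudio. The deposited detection p-value of a gene refers to negative control beads, but it did not follow the log2 signal in every gene. Taf9 failed the filter at log2 signals of 8.78 to 9.8, whereas Crem passed at 6.86 to 7.95. Failing the filter is therefore not in itself a low signal. The deposited linear intensities, called non-normalized, have array medians of 105.5 to 106.3 and were thus already aligned, so that no alternative began with raw signals. Precision is limited by the number of arrays, and p-values rest on the spread between animals.

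The genotypes were set against each other in R 4.3.3 by limma 3.58.1, using lmFit and eBayes with genotype alone, two-sided and adjusted by Benjamini-Hochberg at 0.05. Tables and plots used pandas 2.3.3, numpy 2.4.6 and matplotlib 3.10.9 under Python 3.11.15. The procedure was tested on simulated data. A gene below the filter is given from a fit of all 18097 genes. The members, lists and markers were chosen with earlier results of these data known. From each of the 6 lists, the 2 genes with the largest positive and the 2 with the largest negative differences were named, as well as the 3 genes most like each member past the filter. Genes were placed by RefSeq GRCm38.p6, 14094 by symbol and 3068 by synonym, and 935 were not placed. Alternatives covered the filter, the normalization and background correction, the variance moderation, a replicate block and each animal left out.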

Additional observations from a re-analysis of the deposited data

Results flagged for a closer look

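In 3 of 50 sets of 4 animals checked, 1 animal stood apart from the others by Dixon's test at 95%, where chance gives about 1 in 20. Sox30 had a log2 signal of 6.11 in XEOSry replicate 3, with the other XEOSry testes at 6.24 to 6.25 (gap over range 0.942), all of them below the detection limit. Taf12 had 8.59 in XEZ2OSry replicate 4, with the other XEZ2OSry testes at 8.81 to 8.85 (0.845). Ep300 had 8.63 in XEZ2OSry replicate 2, with the other XEZ2OSry testes at 8.74 to 8.75 (0.903). Their causes were not tested.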

How the results depend on the processing

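The count of genes past the threshold was 5 and ran from 2 to 482 with 1 animal left out. It was 1 with detection required on all 8 arrays, 1 without variance moderation and 1 with a replicate block. With the added setting without replicate 4 of both genotypes it was 1529. Among Tbp, Crem and Taf7l, 0 passed, 0 to 1 passed with 1 animal left out and 3 without replicate 4 of both genotypes (Tbp -0.83, Crem -0.69, Taf7l 0.89), where Tbpl1 also passed in the fit without a filter. Among list genes, 0 passed, 0 to 5 with 1 animal left out and 7 without replicate 4 of both. Of all genes tested, 4.58% passed where 5 list genes did (without XEOSry replicate 4) and 19.2% where 7 did. Why these counts moved was not tested. With 1 animal left out, Tbp ran from -0.73 (without XEZ2OSry replicate 4, the 1 that passed) to -0.44, Taf7 from -0.11 to 0.03, Gtf2b from -0.08 to 0.00144, Sox30 from -0.06 to 0.02 and Taf12 from -0.1 to 0.00818. The sign turned, at values near 0, without XEOSry replicate 3 (Taf7 6.39e-05, Gtf2b, Sox30 0.00415, Taf12), without XEOSry replicate 4 (Taf7) and without XEZ2OSry replicate 2 (Sox30). Filter, normalization, background correction and centring changed no call among these genes. List medians moved to -0.03 (further paralogues) and -0.04 (CREM-dependent genes) with no filter, which adds dim genes, and to -0.21 (other meiotic regulators) with detection on all 8 arrays. Deviations of same-numbered animals from their group means had r = 0.426, -0.232, 0.327 and -0.421, which cannot settle whether the numbers pair them. The Methods call the controls matched without saying how, and the main fit did not use the numbers as pairs. With the replicate block, Tbp had an adjusted p of 0.231 from limma, Crem of 0.231 and Taf7l of 0.265. Signals near background limit Tbpl1, Taf7, Gtf2b and Sox30.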
